A study of Oryctolagus cuniculus with 36 samples.

Results

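Transcripts of 8 genes of the folate cycle and of thymidylate synthesis were followed across rabbit livers in a series on hereditary tyrosinemia type I, the loss of fumarylacetoacetate hydrolase (FAH). They are FPGS, GGH, TYMS, SHMT1, MTHFD1, MTHFS, FTCD and ALDH1L1. They were taken by gene symbol, all 8 of them were found among the 23394 genes of the count table, and all 8 passed the filter on low counts. The groups are known from the sample titles alone, as FA, FK and wild type (WT), and the labels do not spell out FA or FK. Every one of the 36 libraries carries the same description as liver of a rabbit model of the disease, WT included, and the extraction text speaks of treated rabbits for all of them. The labels state no genotype, treatment, age or number of animals. Each group holds 3 numbered sets of 4 libraries, and the 4 were summed, so that n = 3 sets per group. No label says that the sets are separate animals, and the spread between sets behind each p-value may be technical.

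Folates are vitamins that carry single-carbon units between enzymes. Inside a cell they are held by a tail of glutamates, which FPGS adds and GGH removes. SHMT1 loads the carbon of serine onto tetrahydrofolate, MTHFD1 interconverts the loaded forms in the cytosol, MTHFS returns 5-formyl folate to the cycle, FTCD passes on the carbon of histidine, and ALDH1L1 releases it as carbon dioxide. TYMS uses a loaded folate to make thymidylate for DNA. Liver is a main site of folate storage and of serine, glycine and histidine breakdown, and most of its cells do not divide.

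The libraries held 11.7 to 22.5 M counts each, and a summed set 53.2 to 78.6 M. TYMS, the least counted of the 8 genes, had 12 to 40 counts per library in WT, and ALDH1L1, the most counted, had 7480 to 42636 per library over all groups. FAH stood at 25.7, 24.7 and 19.6 CPM (counts per M counts, TMM scaled) in the FA sets and at 16.4, 11.8 and 14.6 CPM in the FK sets, against 237, 271 and 218 CPM in the WT sets (edgeR adjusted p = 0.00183 for FA and 0.000466 for FK). FK sets 1 and 2 stood apart from the other 7. Across genes their log CPM correlated at 0.963 with each other and at 0.821 to 0.856 with the other 7 sets, while FK set 3 correlated at 0.958 to 0.970 with the FA sets. For the 8 genes, and for the counts of calls over gene lists, FK results are therefore also given without FK set 3 and for FK set 3 alone. This split was chosen from these same data. Without FK set 3, FK rests on sets 1 and 2 alone, which were kept because they are alike. The small spread behind the p-values of that fit follows in part from this choice. In the fit with FK set 3 alone, 0.493% of all genes were called between FK and WT. Levels are compared across samples within a gene and not between genes, because no transcript lengths were used. In bulk liver, fewer cells of a type and less RNA per cell cannot be told apart.

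**Figure D1:**
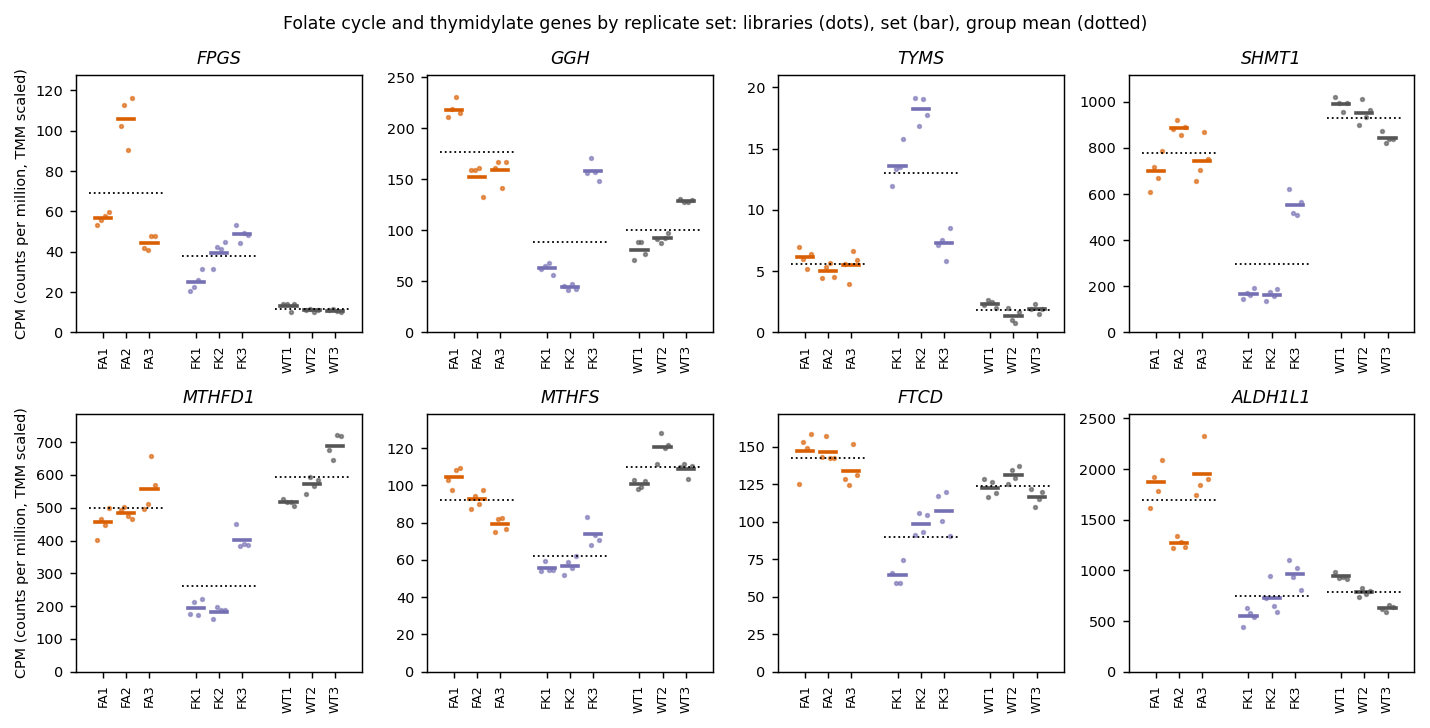
Level of each of the 8 genes in CPM (vertical axes start at 0) by set, with FA, FK and WT from left to right. Dots are the 4 libraries of a set, short bars the summed set and dotted lines the group mean. FPGS and TYMS lie above WT in all 6 FA and FK sets, and SHMT1 and MTHFD1 are lowest in FK sets 1 and 2.

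FPGS rose in both FA and FK and TYMS rose in FK, and these were the calls made among the 8 genes. A gene was called at a Benjamini-Hochberg adjusted p under 0.05 over all 14939 genes tested, by edgeR's quasi-likelihood test with all 9 sets in one fit. Shares of all genes here and below are no test, since the 8 genes were chosen with earlier results of these data known. Between FA and WT, 1 of the 8 was called, higher, where 0.167% of all genes tested were called and 0.0937% were called higher. Between FK and WT 2 of the 8 were called, both higher, where 4.77% of all genes were called and 3.04% were called higher. Between FA and FK none of the 8 was called, where 0% of all genes were called, although 3275 of 14939 had an unadjusted p under 0.05. DESeq2 called 5 of the 8 and 1695 of all genes in that last comparison. Without FK set 3 all 8 were called between FA and FK, 7 higher and TYMS lower, where 34.5% of all genes were called, 16.4% higher and 18.1% lower. Between FK and WT 6 of the 8 were then called, FPGS and TYMS higher and SHMT1, MTHFD1, MTHFS and GGH lower, where 34.9% of all genes were called, 18.7% higher and 16.2% lower. The median log2 difference over the 8 genes was 0.51 for FA minus WT, -0.32 for FK minus WT and 0.91 for FA minus FK, against 0.00, 0.05 and -0.02 over all genes tested. The medians of FK minus WT and FA minus FK were -0.78 and 1.27 without FK set 3, and with FK set 3 alone they were 0.01 and 0.40. Comparisons with WT share the same WT sets, so the FA and FK differences are not independent of each other.

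The sets of the groups overlapped for few of the 8 genes. Against WT, all 3 FA sets lay above all 3 WT sets for FPGS, GGH, TYMS, FTCD and ALDH1L1, or 5 of 8, and below them for none. Over all genes tested 24.9% did not overlap, of which 12.5% lay wholly above and 12.4% wholly below. The FK sets lay wholly above WT for FPGS and TYMS and wholly below for SHMT1, MTHFD1, MTHFS and FTCD, where 13.9% and 13.4% of all genes did so, 27.3% in all. The FA sets lay wholly above the FK sets for SHMT1, MTHFD1, MTHFS, FTCD and ALDH1L1 and wholly below for TYMS, where 8.24% and 8.99% of all genes did so, 17.2% in all.

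**Figure D2:**
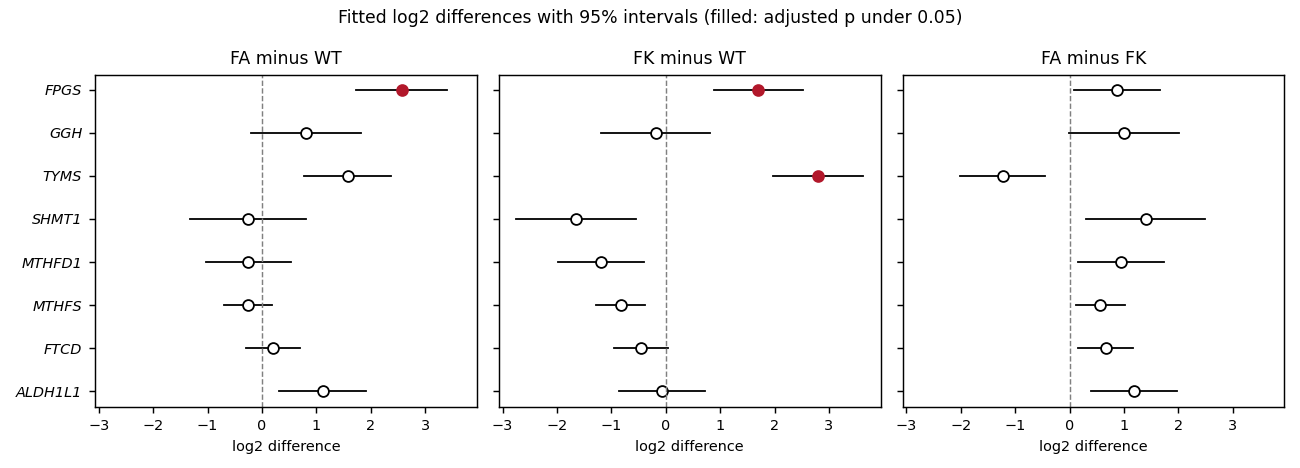
Fitted log2 differences (horizontal axis) of the 8 genes in the 3 comparisons, with 95% intervals as lines. Filled points passed an adjusted p under 0.05, which were FPGS in FA minus WT (2.57) and FK minus WT (1.70) and TYMS in FK minus WT (2.80).

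FPGS, which builds the tail that keeps folates in the cell, stood at 56.8, 106 and 44.6 CPM in the FA sets and at 24.9, 39.4 and 49.0 CPM in the FK sets, against 13.1, 10.98 and 10.8 CPM in the WT sets. All 6 FA and FK sets were above the highest WT set, and FA set 2 was far above the other FA sets. Single libraries lay apart in the same way, but they come from the same sets and add no replicates. The lowest of the 12 FA libraries (41.0 CPM, median 56.8, highest 116) exceeded the highest of the 12 WT libraries (14.2 CPM, median 11.1, lowest 10.1). So did the lowest of the 12 FK libraries (20.3 CPM, median 41.9, highest 53.3). FPGS rose 5.94-fold in FA (log2 2.57, SE 0.37, 95% interval 1.73 to 3.41, adjusted p = 0.0477 in edgeR). In FK it rose 3.25-fold (log2 1.70, SE 0.36, 95% interval 0.89 to 2.52, adjusted p = 0.0414 in edgeR). FA minus FK was 0.87 for FPGS (95% interval 0.07 to 1.67, SE 0.35) and did not pass (adjusted p = 0.199), and FA set 3 lay below FK set 3.

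FPGS kept its direction when any set was left out, but its call was narrow. The FA call held without FK set 3 (adjusted p = 0.00927) and was lost without any other of the 9 sets, FA sets 1, 2 and 3, FK sets 1 and 2 and WT sets 1, 2 and 3 (adjusted p of 0.0556 to 0.225 in edgeR). The log2 difference in those fits ran from 2.12, without FA set 2, to 2.81. The FK call held without FA set 2 or FK set 3 (adjusted p = 0.0419 and 0.0128) and was lost without any of the other 7 sets (0.0652 to 0.161), with log2 differences of 1.45 to 1.93 over the 9 fits. With FK set 3 as the lone FK set, assumed to vary like the other groups, FPGS differed from WT by 2.04 (adjusted p = 0.0838). DESeq2 gave adjusted p = 3e-08 for FA and 0.000374 for FK.

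GGH, the hydrolase that trims the tail in the lysosome, stood at 218, 153 and 159 CPM in the FA sets and at 62.8, 44.1 and 158 CPM in the FK sets, against 81.0, 92.2 and 129 CPM in the WT sets. The FA sets were all above WT, whereas FK sets 1 and 2 were the lowest of the 9 and FK set 3 lay between FA sets 2 and 3. No comparison of GGH passed the test. FA minus WT was 0.81 (SE 0.45, 95% interval -0.20 to 1.83, adjusted p = 0.582), FK minus WT was -0.19 (SE 0.44, 95% interval -1.20 to 0.82, adjusted p = 0.820) and FA minus FK was 1.00 (SE 0.45, adjusted p = 0.234). Without FK set 3, FK lay 0.93 log2 units below WT (-0.93, adjusted p = 0.0317) and FA lay 1.75 above FK (adjusted p = 0.00206). With FK set 3 alone, FK minus WT was 0.62 (adjusted p = 0.391).

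The ratio of FPGS to GGH counts in a set does not depend on the lengths of the 2 transcripts once it is taken relative to WT. This ratio was chosen after its values were seen. Relative to the WT mean its log2 value was 1.15, 2.56 and 1.25 in the FA sets and 1.76, 2.93 and 1.40 in the FK sets, against 0.46, 0.03 and -0.49 in the WT sets. FA and FK sets did not overlap with WT, and they overlapped with each other. The group means were 3.15-fold and 4.09-fold the WT ratio, with log2 SD of 0.79 in FA, 0.80 in FK and 0.48 in WT (n = 3 each). FK sets 1 and 2, which had less FPGS than FK set 3, also had less GGH and a higher ratio.

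TYMS, thymidylate synthase, stood at 6.17, 4.99 and 5.52 CPM in the FA sets and at 13.6, 18.2 and 7.28 CPM in the FK sets, against 2.33, 1.37 and 1.90 CPM in the WT sets. The 3 groups did not overlap, with FK highest, FA next and WT lowest, and FK set 3 was nearer to the FA sets than to FK sets 1 and 2. TYMS rose 6.99-fold in FK (log2 2.80, SE 0.36, 95% interval 1.98 to 3.63, adjusted p = 0.0150 in edgeR). FA minus WT was 1.58 (SE 0.35, 95% interval 0.78 to 2.37) and did not pass (adjusted p = 0.186), while FA minus FK was -1.23 (SE 0.34, 95% interval -2.01 to -0.45, adjusted p = 0.118). The lowest of the 12 FA libraries (3.98 CPM) and of the 12 FK libraries (5.86 CPM) lay above the highest WT library (2.61 CPM). Here too the libraries come from the same sets and add no replicates. At 12 to 40 counts per WT library, TYMS had the widest spread within sets of the 8 genes, with a coefficient of variation of up to 40.7%.

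The FK call of TYMS was lost without FK set 1 or without WT set 1, 2 or 3 (adjusted p of 0.0548 to 0.0736 in edgeR) and held without each of the other 5 sets (9.05e-05 to 0.0387), with log2 differences of 2.49 to 3.08. For FK set 3 alone the difference from WT was 1.93 (adjusted p = 0.0538). Without FK set 3, TYMS was called in FA as well (log2 1.58, adjusted p = 0.0183), in a fit where 1.6% of all genes were called between FA and WT and 0.912% were called higher. The FA and WT sets were those of the main fit, which gave the same difference (1.58, adjusted p = 0.186 in edgeR). What differed was the FK data behind the spread shared by all groups, so this call adds no FA or WT data. DESeq2 gave adjusted p = 0.00452 for FA and 1.8e-10 for FK.

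Markers of dividing and blood-forming cells were high in FK sets 1 and 2, where TYMS was also highest. The 15 cell division markers, such as MKI67 and TOP2A, summed to 45.3 to 67.2 CPM in the FA sets and to 393, 795 and 51.7 CPM in FK sets 1, 2 and 3, against 39.4 to 53.9 CPM in the WT sets. PLK1, TOP2A and MCM3 were called higher in FK than in WT, or 3 of the 15 where 3.04% of all genes were called higher, and 0 of 15 were called in FA. In the fit without FK set 3, 14 of 15 were called higher in FK, where 18.7% of all genes were, and with FK set 3 alone 0 of 15 were called. The 11 erythroid markers summed to 115 to 264 CPM in FA and to 864, 2175 and 156 CPM in FK sets 1, 2 and 3, against 40.1 to 108 CPM in WT, with TFRC alone called (higher). TFRC, the transferrin receptor, which other cells also make, held most of the sum in FA (131, 242 and 109 CPM) and FK set 3 (143 CPM). The other 10 summed to 6.24 to 21.4 CPM in FA and to 675, 1853 and 13.5 CPM in FK sets 1, 2 and 3, against 15.7 to 79.5 CPM in WT, a split chosen after the values were seen. The fitted FA minus WT difference was above 0 for 2 of the 11, with a median of -2.28. All 11 were called higher in FK without FK set 3, and TFRC alone with FK set 3 alone. RHAG was at 0 in FA sets 2 and 3, FK set 3 and WT set 2, GATA1 in FA set 1 and AHSP in FA set 3. The 7 neutrophil markers that matched, of 8, summed to 18.3 to 40.2 CPM in FA and to 1191, 2051 and 26.9 CPM in FK sets 1, 2 and 3, against 16.0 to 26.8 CPM in WT, 4 of 7 were called higher in FK, and MPO was at 0 in FA set 3. All 7 were called higher in FK without FK set 3, and with FK set 3 alone 0 were. In the FA sets and FK set 3 TYMS was at 2.67 to 3.90 times the WT mean. Their cell division sums were 45.3 to 67.2 CPM, and those of FA sets 1 and 3 were above each WT set. The part of cell division and of blood-forming cells in the TYMS levels of any set was not tested.

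**Figure D3:**
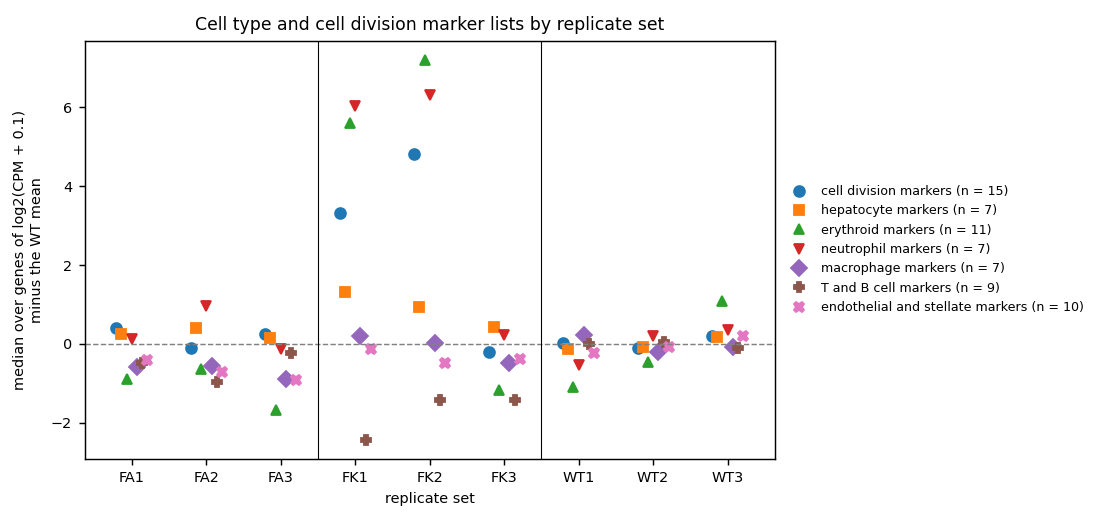
Median over each marker list of log2(CPM + 0.1) minus the WT mean (vertical axis) in the 9 sets, with one symbol per list. Cell division, erythroid and neutrophil medians are above 3 in FK sets 1 and 2 and between -1.67 and 1.10 in the other 7 sets.

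Hepatocyte markers were present in all 9 sets. The 7 of 8 that matched summed to 203909 to 267780 CPM in FA and 140968 to 229059 CPM in FK, against 189267 to 254555 CPM in WT, with the lowest sum in FK set 2. ALB made up most of this sum, and the members differed in direction. In FK sets 1 and 2 TTR was at 0.206 and 0.279 of the WT mean, and APOB was at 2.11 and 1.91 times it. APOA1 was the one called with all sets (higher in FK). For this and the lists below, 3.04% of all genes were called higher and 1.73% lower in FK with all sets. APOB, TAT, APOA1 and FGB were called higher and TTR lower without FK set 3, and with FK set 3 alone 0 of 7 were called. Macrophage markers (7 of 9 matched, CD163 called higher in FK) summed to 299 to 399 CPM in FA and 482 to 726 CPM in FK, against 553 to 752 CPM in WT. T and B cell markers (9 of 10 matched, MS4A1 and CD5 called lower in FK) summed to 5.33 to 7.95 CPM in FA and 3.26 to 5.67 CPM in FK, against 10.2 to 11.7 CPM in WT. Endothelial and stellate markers (10 of 10, 0 called) summed to 220 to 327 CPM in FA and 297 to 428 CPM in FK, against 377 to 477 CPM in WT. Leaving out FK set 3, the calls between FK and WT were 2 higher of 7 macrophage markers, 6 lower of 9 T and B cell markers, and 1 higher and 1 lower of 10 endothelial and stellate markers. These calls, and those of the hepatocyte list without FK set 3, came from a fit where 18.7% of all genes were called higher and 16.2% lower. None of these 3 lists had a call with FK set 3 alone. The parts of these cells in the folate gene levels were not tested.

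The cytosolic enzymes that load and interconvert carbon units, SHMT1 and MTHFD1, were lowest in FK sets 1 and 2 and did not pass the test in any comparison. SHMT1, which splits serine to glycine, stood at 702, 888 and 745 CPM in the FA sets and at 168, 163 and 554 CPM in the FK sets, against 992, 953 and 841 CPM in the WT sets. The FK sets lay below both other groups, and FK sets 1 and 2 far below FK set 3. FK minus WT was -1.65 (SE 0.49, 95% interval -2.75 to -0.55, adjusted p = 0.0760) and FA minus FK 1.40 (SE 0.48, adjusted p = 0.151), while FA minus WT was -0.25 (SE 0.47, 95% interval -1.33 to 0.82, adjusted p = 0.906). FK minus WT was -2.51 without FK set 3 (adjusted p = 0.000161). For FK set 3 alone the difference was -0.78 (adjusted p = 0.267).

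MTHFD1, the 3-activity enzyme that links formate to the cytosolic folate pool, stood at 456, 483 and 558 CPM in the FA sets and at 194, 183 and 403 CPM in the FK sets, against 517, 572 and 690 CPM in the WT sets. FK was lowest, and FA and WT overlapped. FK minus WT was -1.19 (SE 0.35, 95% interval -1.98 to -0.40, adjusted p = 0.0755), FA minus FK 0.94 (SE 0.35, adjusted p = 0.170) and FA minus WT -0.25 (SE 0.34, adjusted p = 0.868). Leaving out FK set 3 gave an FK difference of -1.67 (adjusted p = 0.000847), against -0.59 (adjusted p = 0.371) for FK set 3 alone.

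MTHFS, which converts 5-formyl tetrahydrofolate back to a form the cycle can use, stood at 104, 92.5 and 79.0 CPM in the FA sets and at 55.6, 56.8 and 73.8 CPM in the FK sets, against 101, 120 and 109 CPM in the WT sets. FK lay below both other groups, and FA set 1 lay within the range of WT. FK minus WT was -0.83 (SE 0.20, 95% interval -1.28 to -0.37) with adjusted p = 0.0505, just over the threshold. It was called by DESeq2 (adjusted p = 0.00119) and without FK set 3 (-0.99, adjusted p = 0.00549), and not for FK set 3 alone (-0.61, adjusted p = 0.309). FA minus FK was 0.57 (SE 0.20, adjusted p = 0.154) and FA minus WT was -0.26 (SE 0.20, adjusted p = 0.720).

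FTCD, which transfers the formimino group of histidine breakdown to folate, stood at 147, 146 and 134 CPM in the FA sets and at 64.5, 98.2 and 107 CPM in the FK sets, against 123, 131 and 116 CPM in the WT sets. The groups were in the order FA, WT and FK with no overlap between them, although FA exceeded WT by a small margin. FA minus WT was 0.21 (SE 0.22, 95% interval -0.30 to 0.71, adjusted p = 0.812), FK minus WT -0.46 (SE 0.22, adjusted p = 0.220) and FA minus FK 0.66 (SE 0.22, adjusted p = 0.144). With FK set 3 left out, FA exceeded FK by 0.82 (adjusted p = 0.0219), and FK minus WT was -0.62 (adjusted p = 0.0618). For FK set 3 alone FK minus WT was -0.24 (adjusted p = 0.632).

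ALDH1L1, which oxidizes 10-formyl tetrahydrofolate to carbon dioxide in the cytosol, was highest in FA. It stood at 1868, 1267 and 1951 CPM in the FA sets and at 545, 728 and 967 CPM in the FK sets, against 941, 783 and 626 CPM in the WT sets. All FA sets were above both other groups, and FK and WT overlapped. FA minus WT was 1.11 (SE 0.35, 95% interval 0.32 to 1.91, adjusted p = 0.341) and FA minus FK 1.18 (SE 0.35, 95% interval 0.39 to 1.98, adjusted p = 0.124), whereas FK minus WT was -0.07 (SE 0.35, 95% interval -0.85 to 0.71, adjusted p = 0.920). DESeq2 called the first 2 (adjusted p = 0.0223 and 0.00342). Without FK set 3 the FA minus WT difference was also 1.11 (adjusted p = 0.0868) and FA minus FK was 1.43 (adjusted p = 0.00816). FK minus WT was -0.32 without FK set 3 (adjusted p = 0.448) and 0.27 with FK set 3 alone (adjusted p = 0.750).

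The 8 genes did not move as a block. In FK sets 1 and 2, SHMT1, MTHFD1, MTHFS, GGH and FTCD were at 0.176 to 0.795 of the WT mean and FPGS and TYMS were 2.14 to 9.78 times it. FK set 3 lay within the range of the FA sets in FPGS (4.22 times the WT mean) and GGH (1.57). Its TYMS (3.90) was above each FA set (2.67 to 3.31). Its SHMT1, MTHFD1 and MTHFS were at 0.597, 0.679 and 0.671 of the WT mean, below each FA set (0.718 to 0.956). Its FTCD (0.866) and ALDH1L1 (1.23) were also below each FA set (1.08 to 1.19 and 1.62 to 2.49). For MTHFS the libraries of FK set 3 (67.8 to 83.1 CPM) overlapped with those of FA set 3 (75.1 to 82.5 CPM). Within the 4 libraries of a set the median coefficient of variation ran from 4.90% for MTHFS to 12.3% for TYMS, which is not the spread between sets.

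Around the 8 genes, 55 other genes of folate, methyl and nucleotide metabolism in 8 lists were examined, of which 53 matched and were tested. SARDH and ADSS2 were not analysed here. Between FA and WT 0 of 53 were called, where 0.167% of all genes were, and their median difference was -0.05. Between FK and WT 3 were called higher and 2 lower, with a median of 0.17, where 3.04% of all genes were called higher and 1.73% lower. Between FA and FK 0 were called, with a median of -0.47, in a comparison where no gene of the table was called. When FK set 3 was left out, 20 were called higher and 10 lower between FK and WT, in a fit where 34.9% of all genes were called, and for FK set 3 alone 0 were called, where 0.493% of all genes were. GNMT was called lower in FA without FK set 3, where 0.686% of all genes were called lower. Its difference was -1.27 both in that fit and with all sets, where it was not called.

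The mitochondrial side of the cycle carried 2 of the 5 calls. MTHFD2, the mitochondrial dehydrogenase and cyclohydrolase of dividing and embryonic cells, stood at 1.47, 1.56 and 1.51 CPM in the FA sets and at 52.6, 104 and 1.59 CPM in the FK sets, against 1.58, 1.55 and 1.83 CPM in the WT sets. ALDH1L2, the mitochondrial counterpart of ALDH1L1, stood at 0.449, 0.810 and 0.619 CPM in the FA sets and at 34.5, 29.4 and 0.777 CPM in the FK sets, against 0.463, 0.435 and 0.518 CPM in the WT sets. Both were thus high in FK sets 1 and 2, the sets with high cell division, erythroid and neutrophil sums, and near the WT level in FK set 3. In the fit of all sets both were called higher in FK, MTHFD2 by 4.99 (SE 1.13, adjusted p = 0.0471) and ALDH1L2 by 5.51 (SE 1.12, adjusted p = 0.0408). Without any set but FK set 3 neither call held (adjusted p of 0.0732 to 0.170 for MTHFD2 and 0.0651 to 0.160 for ALDH1L2). SHMT2, the mitochondrial serine hydroxymethyltransferase, was not called, with 424, 369 and 371 CPM in FA and 251, 346 and 275 CPM in FK, against 350, 329 and 335 CPM in WT.

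Folate uptake and reduction had no calls with all sets (0 of 6). When FK set 3 was left out FOLR1, a folate receptor, was called higher and SLC25A32, the mitochondrial folate carrier, lower between FK and WT. Between FA and FK 3 of 6 were then called. In that fit 34.9% of all genes were called between FK and WT and 34.5% between FA and FK. SLC46A1, the proton-coupled folate transporter, had the smallest p of the list, at 14.6, 25.1 and 13.9 CPM in FA and 14.8, 17.5 and 14.6 CPM in FK, against 30.0, 26.5 and 26.0 CPM in WT (FK minus WT -0.82, adjusted p = 0.0780).

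In the methyl branch 1 of 7 genes was called between FK and WT, where 4.77% of all genes were called. MTR, methionine synthase, which takes the methyl group of folate, rose in FK by 2.05 (SE 0.35, adjusted p = 0.0314), with 22.1, 7.69 and 15.2 CPM in FA and 26.5, 20.5 and 21.7 CPM in FK, against 5.40, 6.39 and 4.83 CPM in WT. Unlike MTHFD2, it was as high in FK set 3 as in FK set 2. The call was lost without FA set 3, FK set 1 or 2 or any WT set (adjusted p of 0.0626 to 0.138). Among 7 matched glycine and methylglycine genes, GNMT, a folate-binding methyltransferase of liver, fell in FK, with a log2 difference of -1.99 (SE 0.31, adjusted p = 0.0241), with 755, 757 and 1074 CPM in FA and 435, 621 and 516 CPM in FK, against 1960, 2099 and 2180 CPM in WT. Its call was lost without FK set 1 or 2 or any WT set (0.0627 to 0.111). GLDC, AMT and PIPOX of this list were called lower as well without FK set 3, where 16.2% of all genes were called lower.

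**Figure D4:**
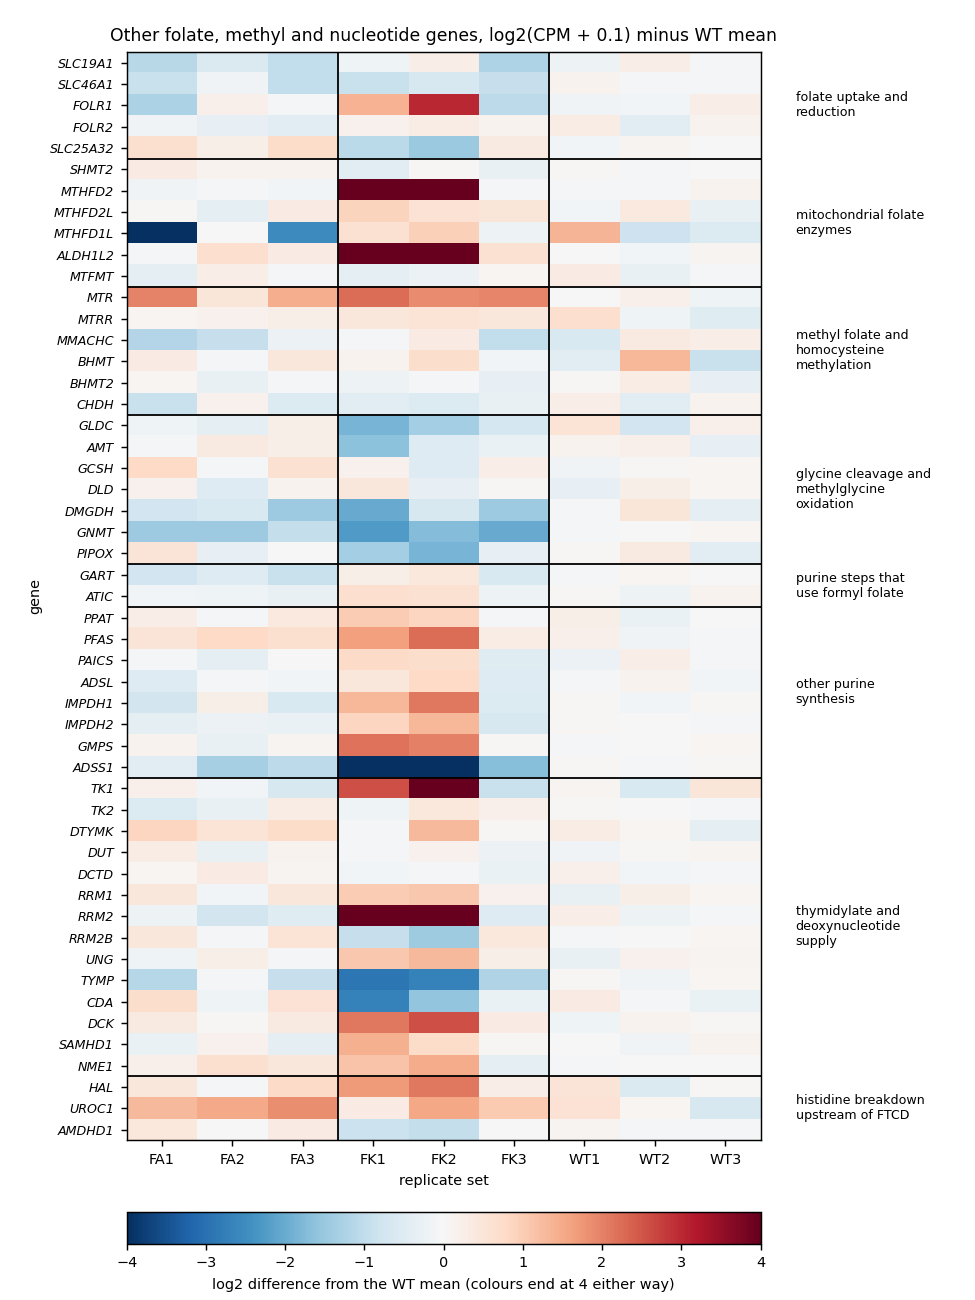
Log2(CPM + 0.1) minus the WT mean (colour, ending at 4 either way) of 51 of the 53 other folate, methyl and nucleotide genes (rows) in the 9 sets (columns, FA, FK and WT from left to right). MTHFD2, ALDH1L2 and RRM2 are at the top of the scale in FK sets 1 and 2 and near 0 in FK set 3, and MTR and GNMT differ from WT in all 3 FK sets.

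Nucleotide genes around TYMS had 1 call between FK and WT among 14 thymidylate and deoxynucleotide genes, and none among 10 purine genes. With all sets 4.77% of all genes were called. Without FK set 3 there were 7 higher and 3 lower among the 14, and 8 higher and 1 lower among the 10, in a fit where 18.7% of all genes were called higher and 16.2% lower. Neither group had a call with FK set 3 alone. TYMP, which breaks thymidine down, fell in FK, with a log2 difference of -2.07 (SE 0.49, adjusted p = 0.0491), with 8.77, 18.5 and 10.1 CPM in FA and 2.51, 2.90 and 8.48 CPM in FK, against 20.3, 17.8 and 20.4 CPM in WT. Its call held without FK set 3 (-2.87, adjusted p = 0.000373) and was lost without any other set (0.0663 to 0.163). RRM2 and TK1, which supply deoxynucleotides and thymidylate in S phase, were chosen after their values were seen. RRM2 stood at 1.47, 1.00 and 1.19 CPM in FA and 30.5, 132 and 1.18 CPM in FK, against 2.08, 1.47 and 1.67 CPM in WT (FK minus WT 4.97, adjusted p = 0.0553, and 5.53, adjusted p = 0.000162, without FK set 3). TK1 stood at 1.45, 1.13 and 0.753 CPM in FA and 7.83, 25.6 and 0.625 CPM in FK, against 1.34, 0.773 and 1.78 CPM in WT (FK minus WT 3.13, adjusted p = 0.0952, and 3.67, adjusted p = 0.000983, without FK set 3). Both were below the WT mean in FK set 3, where RRM1, UNG and DCK of the same list were at 1.12, 1.16 and 1.24 times it. For FK set 3 alone, the fitted difference from WT was above 0 for 7 of the 14.

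The purine steps that use formyl folate, GART and ATIC, had no calls with all sets, and GART had the smaller p (FA minus FK -0.80, adjusted p = 0.139), at 9.72, 11.6 and 9.002 CPM in FA and 19.5, 22.3 and 10.8 CPM in FK, against 16.1, 17.5 and 16.4 CPM in WT. Of 8 other purine genes PFAS had the smallest p, with 5.58, 6.77 and 6.07 CPM in FA and 12.3, 18.8 and 4.76 CPM in FK, against 4.49, 3.49 and 3.77 CPM in WT (FK minus WT 1.61, adjusted p = 0.0598, and 1.97, adjusted p = 0.000389, without FK set 3). Upstream of FTCD, none of the 3 other enzymes of histidine breakdown was called with all sets. In the fit without FK set 3, HAL was called higher and AMDHD1 lower between FK and WT, and both were called between FA and FK. There 34.9% and 34.5% of all genes were called in the 2 comparisons. UROC1, urocanate hydratase, had the smallest p, at 225, 263 and 328 CPM in FA and 114, 264 and 189 CPM in FK, against 136, 95.7 and 58.7 CPM in WT (FA minus WT 1.49, adjusted p = 0.258).

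The genes most like each of the 8 were found among genes with a symbol and a mean of at least 10 CPM, by the root mean square difference between centred log2(CPM + 1) values over the 9 sets. For FPGS these were NQO1 (0.47), NUPR1 (0.48) and PLEKHB2 (0.48), against a root mean square of 1.06 for FPGS itself. For TYMS they were DBF4 (0.22), EPS8 (0.34) and PAK1 (0.34), against 0.96 for TYMS. SHMT1 was closest to MAT1A (0.15), CYS1 (0.17) and HDHD3 (0.18), and MTHFD1 to AGXT2 (0.15), RAD23B (0.16) and PAQR3 (0.17), against 0.97 and 0.64 for the 2 genes themselves. DBF4 shows how close the best match of TYMS was, with 11.1, 8.54 and 11.1 CPM in FA and 19.0, 22.4 and 13.01 CPM in FK, against 4.07, 3.93 and 4.16 CPM in WT. The remaining nearest genes were PID1 (0.15) for GGH, JTB (0.10) for MTHFS, ECHDC3 (0.08) for FTCD and ETFA (0.28) for ALDH1L1. All of these rest on the same 9 sets, FK sets 1 and 2 included, and are descriptions with no test.

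In the RefSeq gene table, the span of GGH overlaps that of TTPA, and the span of SHMT1 that of SMCR8. Spans include introns, exons were not compared, and the labels name no stranded kit. Whether reads were shared within these pairs was not tested. SMCR8 stood at 7.20 to 9.69 CPM in FA and 11.03 to 12.3 CPM in FK, against 7.46 to 9.92 CPM in WT, far fewer counts than SHMT1. TTPA stood at 31.4 to 57.3 CPM in FA and 6.93 to 37.0 CPM in FK, against 39.3 to 59.4 CPM in WT. MTHFD1 overlaps a snoRNA and a snRNA there, and the other 5 genes overlap none.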

How the data were processed

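The liver RNA-seq data form 1 table with a column for each of 36 libraries. As deposited by the authors, its entries are estimated counts that are already whole. Salmon 0.14.1 is listed in the submitters' processing notes; neither its role nor the rounding, build or annotation is stated there. RefSeq names (mOryCun1.1) gave another symbol to 765 of 8019 LOC identifiers and served to find overlapping genes. Counts of the 4 libraries of a set were added. All 9 sets entered 1 edgeR model (version 4.0.16, in R 4.3.3), normalized by TMM and filtered by filterByExpr, with a quasi-likelihood F test for each comparison and Benjamini-Hochberg adjustment over the 14939 genes kept. CPM values are TMM scaled. The labels name no batch.

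The 8 genes and the other lists were chosen with earlier results of these data known. Genes named are the 8, FAH, SHMT2, MTHFD2, ALDH1L2, the called genes of each list or else its smallest p, and the 3 genes most like each of the 8. Some genes under that rule are not reported here. The alternatives were DESeq2, limma-voom, other scaling, filters, fits and blocks, and each set left out. The procedure was tested on simulated counts with 200 genes changed per comparison. Of genes changed 8-fold, 92%, 90% and 91% were called in FA minus WT, FK minus WT and FA minus FK. Of genes changed 2-fold, 6%, 2% and 2% were called, with 1, 3 and 4 false calls in all. A gene that did not pass may therefore still differ by 2-fold or more. The simulated sets of a group shared the same mean, unlike the real FK sets, so the recovery at 8-fold need not hold for FK. In the real counts MKI67, at 25.6-fold in FK against WT, was not called (adjusted p = 0.0548 in edgeR). Figures used Python 3.11.15 and matplotlib 3.10.9.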

Additional observations from a re-analysis of the deposited data

How the results depend on the processing

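Depth limits TYMS most, at 12 to 40 counts per WT library. Counts of the 8 genes called are given with the share of all genes called in the same fit. In FA minus WT, where 1 of the 8 was called (0.167% of all genes), DESeq2 1.42.0 called 3 (2.36%), the fit of the 2 groups alone 2 (1.63%), 36 libraries as separate replicates 5 (33.9%), limma-voom (limma 3.58.1) with the set as a random block 2 (3.44%), library 1 of each set alone 0 (0.186%) and FK set 3 as the lone FK set 2 (1.21%). In FK minus WT, with 2 called (4.77%), these gave 5 (17.3%), 0 (0.296%), 6 (57.7%), 5 (19.2%), 1 (1.47%) and 0 (0.493%). In FA minus FK, with 0 called (0%), DESeq2 called 5 (11.3%), the 36 libraries 8 (54.7%) and limma-voom 8 (17.0%). Leaving out each set gave 0 to 2, 0 to 6 and 0 to 8 calls in the 3 comparisons, the highest without FK set 3 (1.6%, 34.9% and 34.5%). Deviations from the group mean correlated at -0.0868 to 0.0993 between sets that share a number. With 3 sets per group this cannot show whether the numbers pair the sets, and no label says that they do. The set number as a replicate block gave 0, 0 and 0 calls in the 3 comparisons (0.0201%, 0.315% and 0% of all genes), with FPGS at 2.4995 in FA minus WT (adjusted p = 0.130) and 1.67 in FK minus WT (0.0930), and TYMS at 2.77 in FK minus WT (0.0505). Scaling by RLE, testing every gene, a minimum of 1 CPM in 3 sets and a 2-fold minimum left these counts as they were. Over all genes the counts ran from 2 to 4330, 22 to 7372 and 0 to 6984.

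Of 480 gene values under 20 alternatives, 391 kept direction and side of the threshold, 53 newly passed, 28 no longer passed and 8 turned direction. For FK minus WT, GGH was 0.0051 without FK set 1, 0.13 without FK set 2, 0.0029 without WT set 3 and 0.62 with FK set 3 alone. ALDH1L1 there was 0.055 with library 1 alone, 0.11 without FK set 1, 0.071 without WT set 1 and 0.27 with FK set 3 alone. The range over leaving out each set was -0.93 to 0.13 for GGH and -0.32 to 0.11 for ALDH1L1. The cause was not tested.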
